A study of Mus musculus with 4 samples.

Results

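The genes described here encode the nuclear subunits of oxidative phosphorylation: respiratory complexes I to IV, the electron carrier cytochrome c, and ATP synthase, also called complex V. Members were all probe sets annotated with a single gene symbol of the Nduf, Sdh, Uqcr, Cox4 to Cox8 or Atp5 series, or with Cyc1 or Cycs. The rule found 173 of 45037 non-control probe sets, which belong to 83 of 18193 genes. By complex these were 34 genes of complex I, 4 of complex II, 9 of complex III, 1 for cytochrome c, 18 of complex IV and 17 of complex V. Ndufa4, named for complex I but known as a subunit of complex IV, was counted in complex IV. Another 10 probe sets that name a member together with a second gene were left out.

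RNA came from NIH/3T3 cells, an established line of mouse embryonic fibroblasts. In serum-free medium the cells pushed protrusions for 1 h through a porous membrane with fibronectin on its underside, and were then fixed in 0.3% formaldehyde for 10 min. After scraping, heat for 45 min reversed the crosslinks. The tested material was 2 pseudopodia samples, scraped from the underside after the cell bodies had been wiped away, and it was set against 2 cell body samples, scraped from the upper side after the pseudopodia had been wiped away. All 4 samples shared the line, the fibronectin stimulus, the fixation and its reversal, and each was read on 1 Affymetrix mouse array, with no unstimulated sample analysed here. The separation was by hand, and an array reads shares of RNA, so less of an RNA in a compartment and more of the others cannot be told apart. By the authors' account, replicates within a compartment were independent. What made them so is not given, and the labels do not say whether they were grown and collected apart. The p-values here reflect the variation among these 4 arrays, and without that detail this variation may be technical only.

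Mitochondria make most of a fibroblast's ATP under respiring conditions by passing electrons from NADH (complex I) or succinate (complex II) through complex III, cytochrome c and complex IV to oxygen, while ATP synthase uses the proton gradient that complexes I, III and IV build. Nearly all subunits are encoded by nuclear genes, translated in the cytosol or at the mitochondrial surface and imported, and each complex needs its subunits in fixed ratios. The nuclear respiratory factor NRF1 is a transcription factor known to bind promoters of many of these genes.

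As a view of the regulatory sequence of these genes, promoter windows were searched for the core of the NRF1 site, CGCATGCG, whose 8 letters read the same on both strands. The windows were RefSeq's (assembly GRCm38.p6), from 250 bases before to 50 after a gene's start. Of 68 member genes with a window, 9 held the core (13.2%), against 388 of 9148 genes tested on the arrays (4.24%) and 559 of 27025 genes with any window (2.07%). In 4 of the 9 (5.88% of members, against 2.26% of the tested genes) the core also had G before and C after it. The holders were Ndufa8, Uqcrc1, Uqcr11, Cycs, Cox6a1, Atp5g2, Atp5j, Atp5k and Atp5l. The stretches of 4 of them, chosen because their array values are described below, follow 5′ to 3′ on the gene's strand, with the core in capitals:
Uqcrc1, complex III, chr9:108936659-108936697, plus strand: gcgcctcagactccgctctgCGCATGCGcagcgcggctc
Cycs, cytochrome c, chr6:50566603-50566650, minus strand: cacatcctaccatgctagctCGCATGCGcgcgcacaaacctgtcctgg
Cox6a1, complex IV, chr5:115349092-115349139, minus strand: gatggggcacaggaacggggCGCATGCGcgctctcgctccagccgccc
Atp5g2, complex V, chr15:102671061-102671108, minus strand: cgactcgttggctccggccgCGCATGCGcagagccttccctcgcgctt
Searches on both strands for the letters CCGGAAG, bound by ETS factors, found 17 of 68 member genes (25.0%) against 20.2% of the tested genes, and those for AAGATGGCG, bound by YY1, found 6 (8.82%) against 3.61%. A match is a description of these letters and does not show binding.

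The mRNAs of the respiratory complexes lay close together in pseudopodia and cell bodies. A gene was represented by its brightest probe set, and 77 of the 83 member genes passed the filter on dim genes, a mean of at least 42.0 in intensity. The 6 others, Ndufb4, Cox4i2, Cox6b2, Cox7a1, Cox7c and Cox8b, had only member probe sets between the array floor of 20 and an intensity of 43.2. Readings this near the floor do not show whether those mRNAs were absent from the cells. Of the 77, 2 rose in pseudopodia and 0 fell (limma with Benjamini-Hochberg adjustment over 11320 genes, threshold 0.05). The 2 are 2.60% of the members, where 14.6% of all tested genes were called, 5.92% higher and 8.69% lower. At an unadjusted p under 0.05 by limma, 7 members were higher and 1 lower. Of all tested genes, 3553 (31.4%) passed that level in either direction. With any 1 array left out, limma called 0 members and 0 genes in all (2792 to 2883 genes at an unadjusted p under 0.05). The median log2 difference, pseudopodia minus cell bodies, was 0.017 over the members and -0.0020 over all tested genes. With the arrays centred on their medians, the members' median was -0.017 and that of all tested genes -0.036. Differences were within 1.5-fold for 76 of the 77 members (98.7%), against 76.6% of all tested genes. The 95% interval of the difference stayed within 2-fold for 75 of 77 members (97.4%), against 69.3% of all tested genes.

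**Figure D1:**
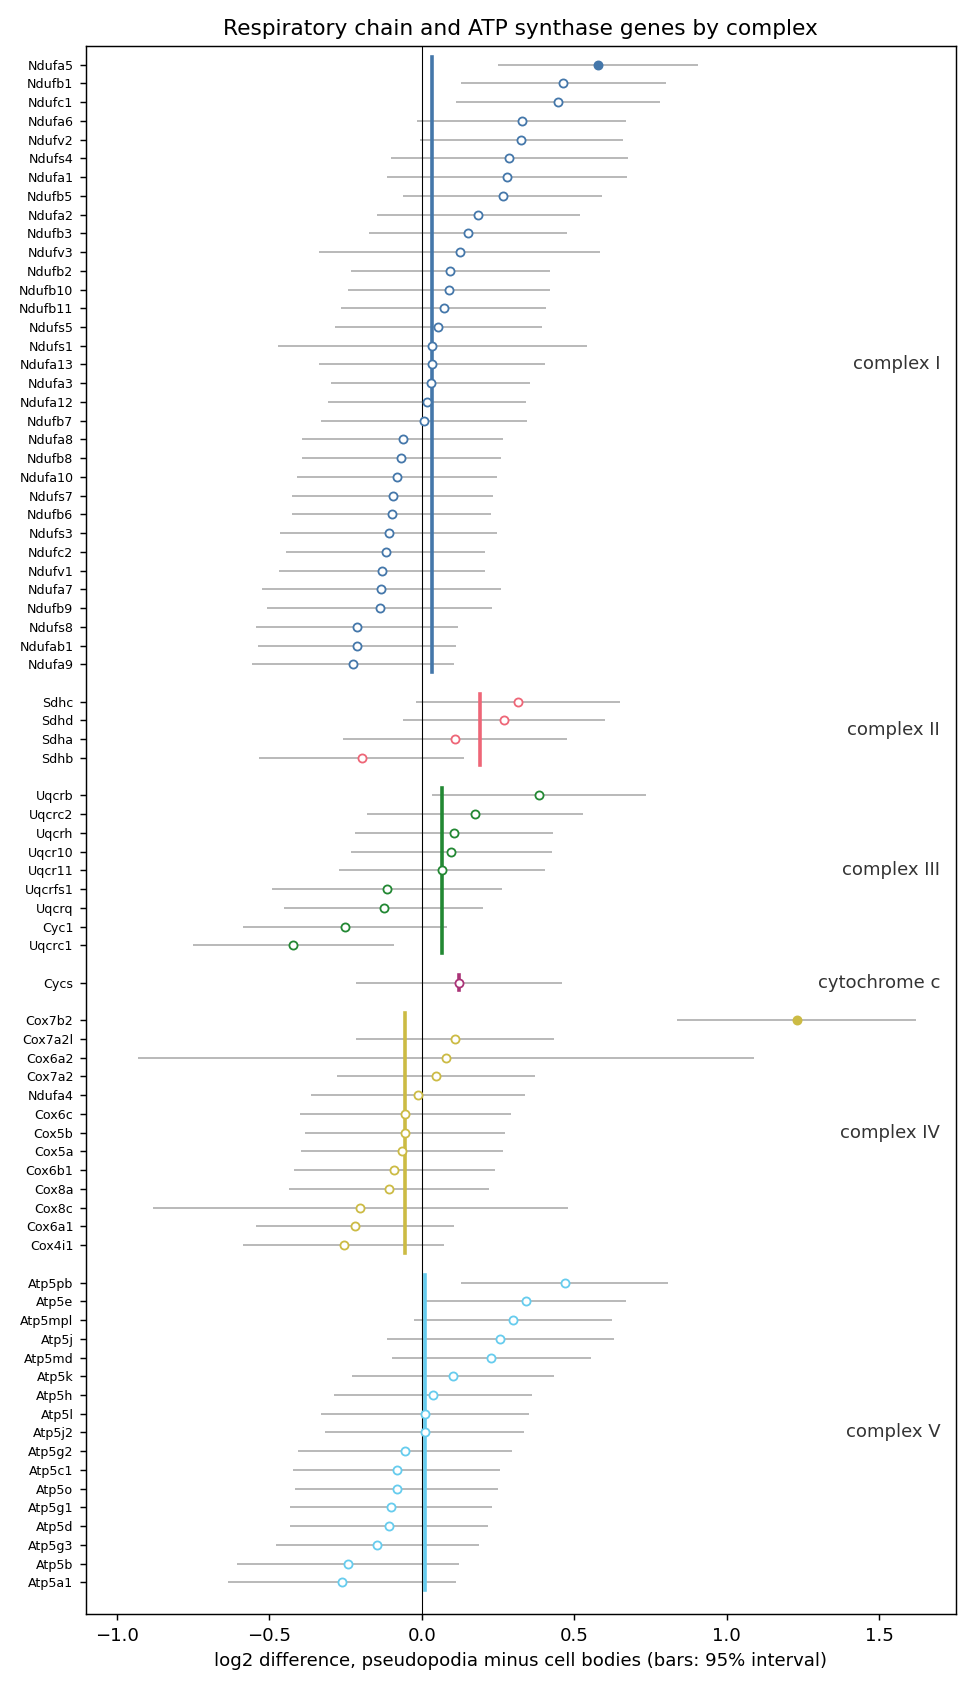
Log2 difference of each of the 77 tested genes, pseudopodia minus cell bodies, by complex, with its 95% interval from limma (n = 2 arrays per compartment). Filled circles mark the 2 genes that passed the test, Ndufa5 and Cox7b2, and coloured vertical lines mark the median of each complex, between -0.054 for complex IV and 0.19 for complex II.

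How many members passed depended on the variance model. With an eBayes prior that follows the intensity, 10 members were called higher and 6 lower, 20.8% of them, and 22.7% of all tested genes were called, 9.55% higher and 13.1% lower. Among all genes of at least 2000 in intensity, 28.3% were called in that setting. The members called in that setting were Ndufa5, Ndufb1, Ndufc1, Ndufa6, Ndufv2, Uqcrb, Cox7b2, Atp5pb, Atp5e and Atp5mpl above 0 and Ndufs8, Cyc1, Uqcrc1, Cox6a1, Cox4i1 and Atp5b below 0. The sizes of the differences were the same in both settings.

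Most members were bright, and differences were smaller among bright genes of any kind. Of the tested members, 70 had a mean intensity of at least 2000, where 10.7% of 1459 genes were called (1.78% higher and 8.91% lower) and 1 of the 70 members was, as higher. Between 2000 and 4000 the differences had an SD across genes of 0.26 for 20 members and 0.43 for all 939 genes. Between 4000 and 8000 it was 0.17 for 41 members and 0.30 for all 419 genes. The median difference of all genes at or above 2000 was -0.081, and that of the members there was 0.0088. The highest intensity of a member was 11643, and the highest on an array was 13766 to 15025.

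**Figure D2:**
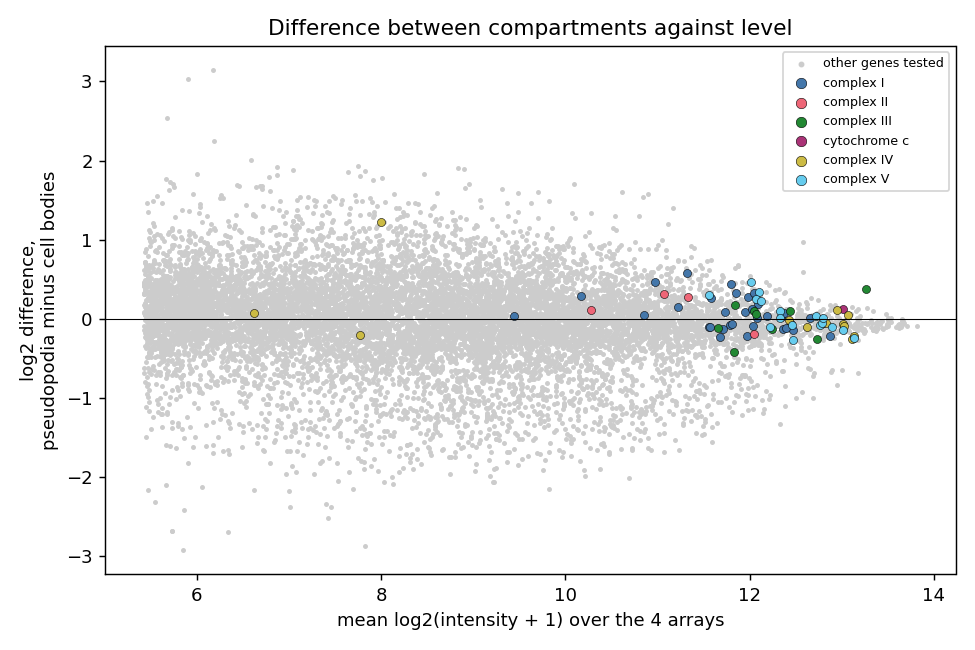
Log2 difference, pseudopodia minus cell bodies, against the mean log2(intensity + 1) over the 4 arrays for every tested gene, with members coloured by complex. Most members sit at the right end, where the spread of all genes is narrower, and Cox7b2 stands apart at a log2 difference of 1.23.

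In complex I, which oxidises NADH, 1 of 33 tested genes rose. This was Ndufa5, an accessory subunit of the matrix arm. It gave 3103 and 3141 in pseudopodia, against 2062 and 2120 in cell bodies. Both pseudopodia arrays were higher than both cell body arrays, with means of 3122 ± 26.6 and 2091 ± 40.6 (SD, n = 2 each). Ndufa5 was 1.49-fold higher in pseudopodia, a log2 difference of 0.58 (SE 0.13, adjusted p = 0.0461 by limma). The call was lost with any array left out (adjusted p = 0.147 to 0.163), with median centring (adjusted p = 0.0871), without the filter on dim genes (0.0662) and in the fit of single probe sets (0.0654). The second probe set of Ndufa5 read 2105 and 1822 in pseudopodia and 1652 and 1684 in cell bodies, a difference of 0.23 (adjusted p = 0.389 in the fit of single probe sets).

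The next largest positive differences in complex I belonged to accessory subunits of the membrane arm. Ndufb1 read 2408 and 2322 in pseudopodia and 1764 and 1663 in cell bodies, with a difference of 0.46 (SE 0.13, adjusted p = 0.0784 by limma). Ndufc1 read 4025 and 4269 in pseudopodia and 2997 and 3087 in cell bodies, with a difference of 0.45 (SE 0.13, adjusted p = 0.0847). Neither pair of compartments overlapped, as was so for 24 of the 33 genes of the complex, 13 higher and 11 lower. Over all tested genes 60.8% did not overlap, 29.5% higher and 31.4% lower, and over the members 75.3%. At the other end, Ndufa9, an accessory subunit where the matrix arm meets the membrane arm, read 3077 and 2992 in pseudopodia and 3467 and 3634 in cell bodies, a difference of -0.23 (adjusted p = 0.305). The acyl carrier protein Ndufab1 read 3715 and 3722 in pseudopodia and 4325 and 4288 in cell bodies, a difference of -0.21 (adjusted p = 0.325). Ndufa6, another accessory subunit, read 4073 and 4177 in pseudopodia and 3430 and 3150 in cell bodies, a difference of 0.33 (adjusted p = 0.171).

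The catalytic core of complex I was listed apart from its accessory subunits. Of 6 tested core genes, 2 had differences above 0 and 4 below, with a median of -0.10, and of the 27 accessory genes 18 were above 0 and 9 below, with a median of 0.054. The iron-sulfur subunit Ndufs8, the core gene with the most negative value, read 7159 and 6813 in pseudopodia and 8124 and 8050 in cell bodies, a difference of -0.21 (SE 0.13, adjusted p = 0.333). Of its 5 other probe sets above the filter, 4 had values from -0.21 to -0.11, and the dim one, between 26.3 and 73.0 in intensity, had 0.52. The NADH-side subunit Ndufv2 had the most positive value of the core genes, at 4642 and 4826 in pseudopodia and 3849 and 3698 in cell bodies, a difference of 0.33 (adjusted p = 0.163). The core genes and accessory genes were set side by side as a description, and the gap between their medians was not tested.

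In complex II, succinate dehydrogenase, 0 of 4 genes passed (0 at an unadjusted p under 0.05, limma), with a median difference of 0.19. The membrane anchor Sdhc read 2463 and 2334 in pseudopodia and 1961 and 1891 in cell bodies, a difference of 0.32 (SE 0.13, adjusted p = 0.175). The other anchor, Sdhd, had 2908 and 2760 in pseudopodia and 2333 and 2363 in cell bodies, a difference of 0.27 (adjusted p = 0.228). These are the brighter probe sets of both anchors, and their second ones overlapped between compartments. The second of Sdhc read 1499 and 1359 in pseudopodia and 1362 and 1329 in cell bodies, a difference of 0.086. The second of Sdhd read 2158 and 1825 in pseudopodia and 1758 and 1894 in cell bodies, a difference of 0.12. The iron-sulfur subunit Sdhb went the other way, at 4041 and 3885 in pseudopodia and 4676 and 4410 in cell bodies, a difference of -0.20 (adjusted p = 0.373). The flavoprotein Sdha read 1326 and 1261 in pseudopodia and 1283 and 1120 in cell bodies, and its compartments overlapped. A dim second probe set annotated to Sdha read 24.0 and 32.0 in pseudopodia and 75.3 and 63.8 in cell bodies, and fell by 1.29 (adjusted p = 0.0307 in the fit of single probe sets), while another, at 1111 and 863 in pseudopodia and 1220 and 915 in cell bodies, overlapped.

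Complex III, the cytochrome bc1 complex, held the member with the most negative difference of all. Uqcrc1, one of its core proteins and a holder of the NRF1 core shown above, read 3219 and 3082 in pseudopodia and 4214 and 4220 in cell bodies. All pseudopodia values lay below all cell body values, a log2 difference of -0.42 (SE 0.13, adjusted p = 0.0931 by limma). It rests on 1 probe set. Its partner, the core protein Uqcrc2, read 3965 and 3823 in pseudopodia and 3648 and 3257 in cell bodies, a difference of 0.18 (adjusted p = 0.453), and its other probe set had -0.054. Uqcrb, the small subunit near the ubiquinone site, read 11643 and 10839 in pseudopodia and 8990 and 8239 in cell bodies, a difference of 0.38 (SE 0.14, adjusted p = 0.133). Its dimmer probe set went the same way, at 1579 and 1172 in pseudopodia and 1036 and 809 in cell bodies. The cytochrome c1 gene Cyc1 read 6349 and 6092 in pseudopodia and 7209 and 7606 in cell bodies, a difference of -0.25 (adjusted p = 0.263). Over the 9 genes the median was 0.066, with 5 above 0, 4 below and 0 called (at an unadjusted p under 0.05, 1 was higher and 1 lower).

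**Figure D3:**
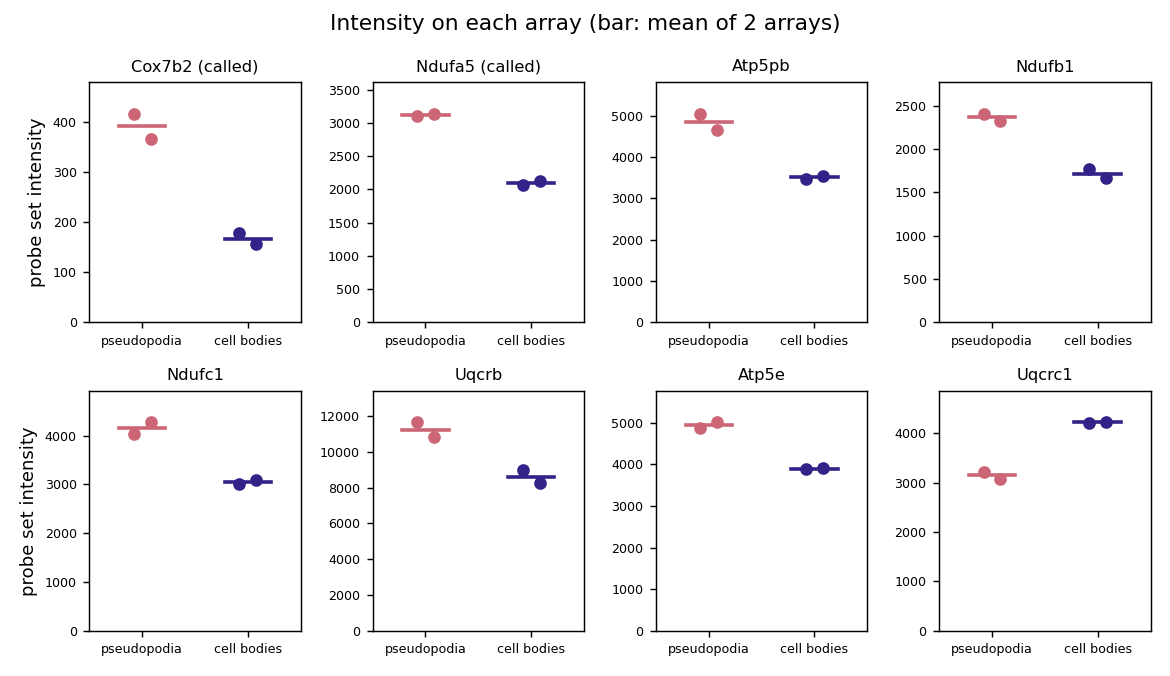
Probe set intensity on each array for the 8 member genes with an unadjusted p under 0.05, pseudopodia at left and cell bodies at right, each axis starting at 0, with bars at the mean of 2 arrays. The compartments do not overlap in any of the 8, which were picked by their p on these same arrays. Of all tested members, 75.3% do not overlap. Cox7b2 and Ndufa5 passed after adjustment, and Uqcrc1 is the one that reads lower in pseudopodia.

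Cytochrome c, the soluble carrier between complexes III and IV, is encoded by Cycs. It read 8990 and 8303 in pseudopodia and 7928 and 7933 in cell bodies, a difference of 0.12 (SE 0.13, adjusted p = 0.583). Its probe sets disagreed: the second read 4399 and 3803 in pseudopodia and 3996 and 4333 in cell bodies, and overlapped, while another read 2700 and 2608 in pseudopodia and 1489 and 1957 in cell bodies, a difference of 0.64 (adjusted p = 0.102 in the fit of single probe sets).

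In complex IV, cytochrome c oxidase, 1 of 13 tested genes rose. This was Cox7b2, an isoform of subunit 7b known chiefly from testis. Its probe set read 417 and 368 in pseudopodia and 178 and 156 in cell bodies. Each pseudopodia array was above both cell body arrays, with means of 393 ± 35.3 and 167 ± 16 (SD, n = 2 each), a 2.34-fold rise (log2 difference 1.23, SE 0.15, adjusted p = 0.0176 by limma). The adjusted p was 0.0896 without the filter on dim genes. With 1 array left out it was 0.0605 to 0.0813, and the gene has 1 probe set.

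Widely expressed subunits of complex IV included some of the more negative differences among the members, without passing the test. Cox4i1, the widely expressed form of subunit 4, read 8273 and 7903 in pseudopodia and 9763 and 9546 in cell bodies, a difference of -0.26 (SE 0.13, adjusted p = 0.251). Cox6a1, another holder of the NRF1 core, read 8328 and 8306 in pseudopodia and 9625 and 9721 in cell bodies. Its difference was -0.22 (adjusted p = 0.312), and its second probe set had -0.35. Holders of the core went both ways: Cycs (0.12), Atp5j (0.26), Atp5k (0.10), Uqcr11 (0.066) and Atp5l (0.012) were above 0. Besides Uqcrc1 and Cox6a1, Atp5g2 (-0.054) and Ndufa8 (-0.062) were below 0. A link between the core and these differences was not tested. Over the 13 genes of complex IV, 4 differences were above 0 and 9 below, with a median of -0.054 that turned to 0.016 under quantile normalization. Of 7 listed isoforms of restricted tissue distribution, Cox4i2, Cox6b2, Cox7a1 and Cox8b were below the filter, and the others were Cox7b2, Cox6a2 and Cox8c. Cox6a2 and Cox8c read between 64.2 and 269 and overlapped between compartments. Among 5 skeletal and heart muscle markers, 2 passed the filter and 0 were called, and their summed intensity was 1725 and 1550 in pseudopodia and 1388 and 1494 in cell bodies. The muscle genes Myh6, Myh7 and Ckm read 20 to 68.0. The other muscle markers were brighter: Tnnt2 read 1246 and 978 in pseudopodia and 869 and 920 in cell bodies. Acta1 read 407 and 453 in pseudopodia and 430 and 452 in cell bodies. The part of these markers in the values of these isoforms was not tested.

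In complex V, ATP synthase, 0 of 17 genes passed, with 2 at an unadjusted p under 0.05 by limma, both higher. Atp5pb, subunit b of the peripheral stalk, read 5057 and 4667 in pseudopodia and 3470 and 3546 in cell bodies, a difference of 0.47 (SE 0.13, adjusted p = 0.0788). Its second probe set read 1923 and 1325 in pseudopodia and 1323 and 1115 in cell bodies, a difference of 0.39. Atp5e, the small epsilon subunit of the F1 head, read 4871 and 5005 in pseudopodia and 3874 and 3916 in cell bodies, a difference of 0.34 (SE 0.13, adjusted p = 0.145). Atp5mpl, a small membrane subunit, read 3333 and 3346 in pseudopodia and 2693 and 2732 in cell bodies, a difference of 0.30 (adjusted p = 0.184).

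The large subunits of the F1 head, alpha and beta, had negative differences. Atp5a1, subunit alpha, read 5537 and 4850 in pseudopodia and 6458 and 5971 in cell bodies, a difference of -0.26 (SE 0.14, adjusted p = 0.294). A second probe set of Atp5a1, of like brightness, read 5567 and 5335 in pseudopodia and 5633 and 5587 in cell bodies. Its difference was only -0.042 (adjusted p = 0.876 by limma in the fit of single probe sets). Atp5b, subunit beta, read 8858 and 7742 in pseudopodia and 9938 and 9652 in cell bodies, a difference of -0.24 (SE 0.14, adjusted p = 0.316). Neither pair of compartments overlapped. Of the 5 F1 genes, 4 were below 0 and Atp5e above, with a median of -0.11, and of the 12 others 8 were above 0 and 4 below, with a median of 0.025; this gap was not tested.

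ATP synthase subunit c, the proton-carrying ring, is encoded by 3 genes, whose products are known to share one mature protein and to differ in their import sequences. Atp5g1 read 4692 and 4538 in pseudopodia and 5049 and 4842 in cell bodies, a difference of -0.10 (95% interval -0.43 to 0.23). Atp5g2 read 6838 and 7045 in pseudopodia and 7597 and 6834 in cell bodies, a difference of -0.054 (-0.40 to 0.30), and its compartments overlapped. Atp5g3 read 7994 and 7729 in pseudopodia and 8480 and 8908 in cell bodies, a difference of -0.14 (-0.48 to 0.19). The 3 genes thus differed from 0 by less than their intervals, and those of Atp5g1 and Atp5g2 turned to 0.031 and 0.013 under quantile normalization. A dim second probe set annotated to Atp5g2 read 62.4 and 31.2 in pseudopodia and 195 and 154 in cell bodies, and fell by 1.95 (adjusted p = 0.0394 in the fit of single probe sets).

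Tested one by one, 148 of the 173 member probe sets were above the filter, and 2 rose and 2 fell, where 11.7% of 22519 probe sets were called, 4.30% higher and 7.44% lower. Those that rose were the one of Cox7b2 and a second probe set of Ndufs4, an accessory subunit of complex I. It read 670 and 681 in pseudopodia and 398 and 349 in cell bodies, a difference of 0.86 (SE 0.15, adjusted p = 0.0359), while the brightest probe set of Ndufs4 had 0.29 (adjusted p = 0.313). Those that fell were the dim ones of Sdha and Atp5g2 given above. Of the 25 member probe sets under the filter, 6 sat at the floor on all 4 arrays.

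Among 45 member genes with several probe sets above the filter, 29 had all of them on one side of 0 and 16 on both. The share depended on brightness. Of 56 further probe sets with a mean intensity of at least 500, 48 had the sign of the gene's brightest probe set, against 6 of 15 dimmer ones. Besides Atp5a1, Cycs, Ndufs8, Sdha and Uqcrc2, dim or weak second probe sets split Ndufa10, Ndufab1, Ndufb8, Ndufb9, Atp5j2 and Uqcrq. For Ndufb8 the bright one read 5554 and 5408 in pseudopodia and 5741 and 5739 in cell bodies, and the dim one 146 and 82.4 in pseudopodia and 84.7 and 56.5 in cell bodies. For Ndufa10 the bright one read 3471 and 3404 in pseudopodia and 3694 and 3579 in cell bodies, and the dim one 139 and 175 in pseudopodia and 104 and 103 in cell bodies. The dim probe set of Ndufa10 did not overlap between compartments and that of Ndufb8 did, and neither passed the test.

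In Uqcrq, of complex III, 1 dim probe set followed the bright one and 1 did not. The bright one read 4684 and 4598 in pseudopodia and 5102 and 5013 in cell bodies, and the dim ones 217 and 245 in pseudopodia against 177 and 174 in cell bodies, and 45.9 and 51.4 in pseudopodia against 70.1 and 60.3 in cell bodies. Atp5j2, subunit f of ATP synthase, read 7204 and 7088 in pseudopodia and 7113 and 7084 in cell bodies, overlapping, and its dim probe set 66.2 and 92.8 in pseudopodia and 99.1 and 115 in cell bodies. The dim probe set of Atp5a1 read 102 and 148 in pseudopodia and 84.0 and 83.0 in cell bodies, opposite in sign to the bright ones. For Ndufb9 the bright one read 5258 and 5527 in pseudopodia and 6356 and 5534 in cell bodies, and a dim one 285 and 360 in pseudopodia and 259 and 292 in cell bodies. For Ndufab1 the dim probe set of opposite sign read 369 and 419 in pseudopodia and 394 and 332 in cell bodies.

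In Ndufa12, Ndufb6, Ndufb11, Atp5h and Atp5o both signs came from bright probe sets with differences within 0.12 of 0. Ndufa12 read 6525 and 6477 in pseudopodia and 6485 and 6366 in cell bodies, and Ndufb11 5302 and 5576 in pseudopodia and 5304 and 5043 in cell bodies, both overlapping. Ndufb6 read 2948 and 2875 in pseudopodia and 3102 and 3128 in cell bodies, with its second probe set at 2456 and 2621 in pseudopodia and 2311 and 2415 in cell bodies. Atp5h, subunit d of the peripheral stalk, read 6789 and 6836 in pseudopodia and 6622 and 6652 in cell bodies. Atp5o, which joins the stalk to the F1 head, read 5550 and 5425 in pseudopodia and 5964 and 5656 in cell bodies, with its second probe set at 3298 and 3361 in pseudopodia and 3190 and 3068 in cell bodies.

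**Figure D4:**
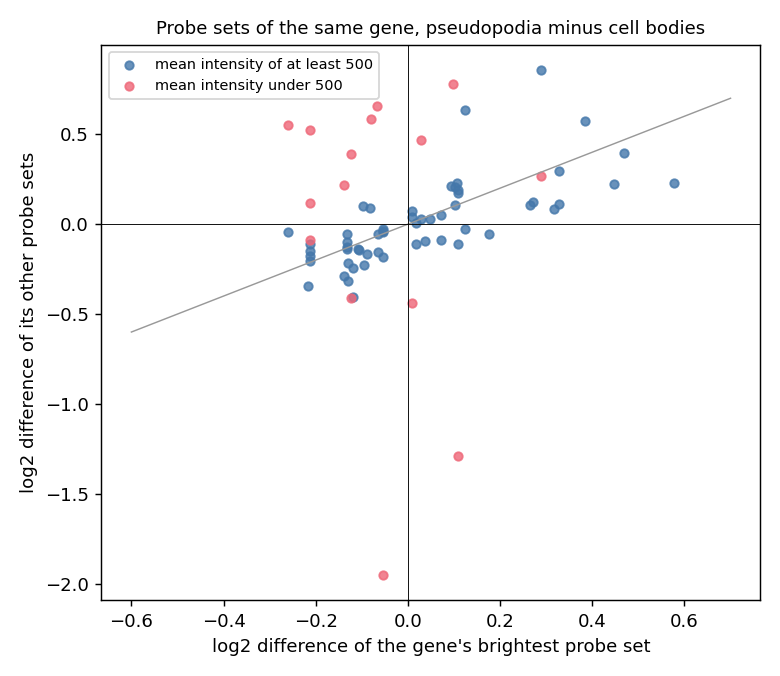
Log2 difference, pseudopodia minus cell bodies, of the further probe sets of each member gene against that of its brightest one, with a line of equality. Points of at least 500 in mean intensity (blue) share the sign of the brightest probe set in 48 of 56 cases, and dimmer ones (red) in 6 of 15; the 2 lowest points are the dim probe sets of Atp5g2 and Sdha.

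Of 47 tested assembly factors, which build the complexes and do not belong to them, 3 rose and 3 fell, 12.8% against the 14.6% of all tested genes. The SD of their differences across genes was 0.56, as it was for all tested genes. Hccs, which attaches haem to cytochrome c, read 798 and 963 in pseudopodia and 411 and 461 in cell bodies, and rose by 1.01 (SE 0.16, adjusted p = 0.0240). Cmc1, of early complex IV assembly, rose by 0.97 (SE 0.21, adjusted p = 0.0476), and Sdhaf3, a maturation factor of Sdhb, by 0.92 (SE 0.16, adjusted p = 0.0267). The complex I factor Tmem186 read 75.8 and 125 in pseudopodia and 374 and 504 in cell bodies, and fell by 2.14 (SE 0.29, adjusted p = 0.0192). The complex III factor Ttc19 fell by 1.64 (SE 0.28, adjusted p = 0.0275), and Sco2, which delivers copper to complex IV, by 1.10 (SE 0.19, adjusted p = 0.0273). Differences of 37 of the 47 were above 0, with a median of 0.17. Among 16 genes of the citric acid cycle and pyruvate dehydrogenase, which feed the chain, 1 rose and 0 fell (limma), with a median of -0.012. This was Sucla2, a subunit of succinyl-CoA synthetase, at 1367 and 1340 in pseudopodia and 742 and 698 in cell bodies, a rise of 0.91 (SE 0.13, adjusted p = 0.0197).

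Across the arrays, 9 of 10 fibroblast markers were above the filter, with Thy1 at the floor on all 4 arrays, and 4 of them were called lower in pseudopodia; their summed intensity was 56922 and 57007 in pseudopodia and 81169 and 73675 in cell bodies. Of 7 epithelial markers 5 passed the filter, of 5 haematopoietic markers 1 and of 4 endothelial markers 0, and none of these was called. The 3′ over 5′ signal, in log2, was 0.56 and 0.65 in pseudopodia and 0.37 and 0.36 in cell bodies for Actb, and -0.075 and -0.066 in pseudopodia and -0.095 and -0.098 in cell bodies for Gapdh. The part of these differences in the values above was not tested. The array records list 1 chip lot, 1 scan day and 1 scanner, and a fluidics module for each array.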

How the data were processed

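Each of 4 arrays has deposited intensities, unlogged, for its probe sets, 2 of pseudopodia and 2 of cell bodies. The sources used here do not give the steps by which the authors summarised and scaled them; the lowest deposited intensity on every array is 20, and 30.5% to 34.8% of probe sets sit there. From these, log2(intensity + 1) was computed, each gene was represented by its brightest probe set with 1 gene symbol in GEO's platform annotation, and genes with a mean log2 under the median of non-control probe sets (5.42) were left out. Compartments were compared by limma 3.58.1 in R 4.3.3 (lmFit, eBayes, two-sided, 2 residual and 2.90 prior degrees of freedom) with Benjamini-Hochberg adjustment over 11320 genes; the fit was tested on simulated data. With 2 arrays per compartment the smallest two-sided permutation p is 0.333, so limma alone was used. The number of arrays limits the precision. Complexes and lists are described by counts and medians, with no list test. Members and lists were chosen with earlier results of these data known. Values on each array are given for called members, the brightest and most extreme member of each complex, subunit c, and genes whose probe sets differ in sign; those called with an intensity trend, Sdhd, Ndufv2, Cyc1 and Ndufs4 were added after their values were seen, as was the background of bright genes. The NRF1 core was shortened to 8 letters after a longer form had been searched; the counts of both are given. All 83 member genes matched a RefSeq gene ID. Other scalings, filters, pseudocounts and variance priors, a replicate block and each array left out were tried.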

Additional observations from a re-analysis of the deposited data

How the results depend on the processing

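Limma called 1654 genes, and 2 without a filter on dim genes, 2645 in the fit of single probe sets and 2564 with an intensity trend. With any array left out, where the lone array of a compartment is assumed to vary like the others, it called 0 to 0 genes and 0 to 0 members (2792 to 2883 genes and 2 to 3 members at an unadjusted p under 0.05). The 2 members called higher became 1 with median centring, 4 with quantile normalization, 0 without a filter, 5 with a stricter filter and 10 with a trend. Of all genes tested, 17.8%, 15.3%, 0.011%, 24.5% and 22.7% were called in these settings, in either direction. Without a filter, 20 of 83 members were higher and 14 lower at an unadjusted p under 0.05 by limma. That level was passed there by 3844 of 18193 genes, in either direction. Members called lower were 2 in the fit of single probe sets and 6 with a trend. The Ndufa5 call was also lost without multi-transcript probe sets (those whose IDs end in _a_at, _s_at or _x_at), where its other probe set had 0.23 (adjusted p = 0.379), and over all settings its adjusted p was 0.00235 to 0.379. For Cox7b2 it was 0.00196 to 0.0896, and 0.0605 to 0.0813 with an array left out. The samples share replicate numbers, and same-numbered samples deviated together (correlation across genes 0.342), but with 2 pairs this does not establish pairing; the replicate block gave 2202 calls, with 2 members higher and 0 lower.

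Median differences moved by more than the spread between arrays as follows. Over all members the median, 0.017, was -0.017 with median centring, 0.10 with quantile normalization and 0.030 without multi-transcript probe sets (-0.00051 to 0.030 with an array left out). Quantile normalization gave 0.15 for complex I, 0.30 for II, 0.20 for III, 0.19 for cytochrome c, 0.016 for IV and 0.087 for V; it raised the median of all genes to 0.053. Complex II had 0.097 in the fit of single probe sets and -0.11 without multi-transcript probe sets (0.15 to 0.23 with an array left out). Complex III had 0.033 with median centring, 0.098 in the fit of single probe sets and 0.11 without multi-transcript probe sets (0.012 to 0.090 with an array left out). Cytochrome c had 0.64 without multi-transcript probe sets, and complex IV -0.10 to -0.025 with an array left out. Median centring subtracts a constant from each array, and so shifts the log2 difference of every gene alike. The median of all tested genes moved with it, from -0.0020 to -0.036. The cause of the other moves was not tested, except that leaving out multi-transcript probe sets puts another probe set in place of some genes' brightest and drops other genes: 56 of 77 members were tested then, and 3 of 4 in complex II, where Sdhc was lost.

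Of 472 comparisons over 37 of the members named above, 423 kept direction and side of the threshold. Another 17 changed sign, none of a called gene. Sdhd and Ndufs4 were not among those followed. Median centring turned Ndufa12 to -0.017 and Atp5j2 to -0.024. Quantile normalization turned Ndufb8 to 0.042, Ndufa10 to 0.049, Ndufb6 to 0.028, Uqcrq to 0.0029, Atp5g2 to 0.013, Atp5o to 0.029 and Atp5g1 to 0.031. Without probe sets that match several transcripts, Ndufb11 had -0.090, Ndufb8 0.66, Ndufab1 0.12, Sdha -0.11, Uqcrq 0.39 and Atp5h -0.093. With an array left out, Atp5j2 ranged from -0.0021 to 0.021 and Atp5g2 from -0.13 to 0.022.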
